A study of Mus musculus with 7 samples.

Results

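The 8 genes described here are the suppressors of cytokine signalling Socs1, Socs2, Socs3 and Cish and the Janus kinases Jak1, Jak2, Jak3 and Tyk2. A called region was assigned to a gene when its midpoint lay in the gene body or within 20 kb of it, in the GENCODE annotation of the mouse build NCBIM37, which is mm9. By this rule 7 of the 4934 Runx3-bound regions and 95 of the 76705 H3K4me1-marked regions of the study fell at these genes. The regions came from chromatin immunoprecipitation followed by sequencing (ChIP-seq) of splenic CD8+ T cells (CD8-TC), the killer lymphocytes, in the resting state. The cells came from WT mice of the outbred strain ICR, pooled from 18 mice, and were selected with magnetic beads that bind CD8, then fixed and frozen. A home-made polyclonal antibody to the transcription factor Runx3 was used for 3 libraries from 2 biological repeats, a monoclonal antibody to H3K4me1, the single methylation of lysine 4 of histone H3, for 2 libraries, and non-immune rabbit serum (NIS) for 2 control libraries. All 3 groups used the same kind of cell, with no other treatment, genotype or time, and the labels give no age of the mice. Each antibody gave 1 list of regions called on its joined repeats, without height, score or read count. No value below therefore has a replicate error, no comparison was tested across samples, and the depth behind a region is unknown. A gene without a region is a gene at which none was called.

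Cytokines such as interleukin-2, interleukin-7 and the interferons signal through receptors that have no enzyme activity of their own and borrow it from the Janus kinases. The kinases phosphorylate the receptors and then the Stat transcription factors, which bind the palindrome TTCNNNGAA, known as the GAS motif, in the DNA. Socs1, Socs2, Socs3 and Cish are textbook Stat target genes, and their products feed back on the receptors and kinases and end the signal. Runx3 is the main Runx factor of CD8-TC and binds TGNGGN, in which each N is T or C and which is called the RUNX motif, while H3K4me1 marks enhancers and the flanks of active promoters.

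Runx3-bound regions were found at 3 of the 4 Janus kinase genes and at none of the 4 Socs genes, while 19.8% of all protein-coding genes had at least 1. Among genes whose window length was within 25%, the share was 14.1% for Socs1, 21.7% for Socs2, 14.5% for Socs3 and 15.0% for Cish, so a count of 0 of 4 lies near the background. For the kinases, whose windows total 371.7 kb against 204.3 kb for the Socs genes, the share was 28.6% for Jak1, 24.1% for Jak2, 16.3% for Jak3 and 20.3% for Tyk2. The difference between the groups was not tested. The count also depends on the window, since with the gene body alone 1 of the 8 genes, Jak1, had a region, and with 50 kb 5 had, with 1 region each at Socs1 and Cish. Jak1 held 5 of the 7 regions, and Jak3 and Tyk2 held 1 each. Jak2 held none. Sequences of the Jak1 and Tyk2 regions are shown first because the motif is where Runx3 itself would contact the DNA. For Jak1 they are the 200 bases around the midpoint, on the plus strand of NCBIM37, of the 4 regions that carried a RUNX motif there, with the motif of either strand in capitals. For Tyk2 they are the 250 bases before the RefSeq transcription start, on the minus strand of the gene, because that start lay inside the Runx3-bound region. The Jak1 sequences lie at chr4:100840465-100840664, chr4:100847802-100848001, chr4:100860123-100860322 and chr4:100886098-100886297, in the order given. The first bases of the intron 8 sequence lie in exon 9. The Tyk2 sequence lies at chr9:20935720-20935969.
Jak1 intron 11: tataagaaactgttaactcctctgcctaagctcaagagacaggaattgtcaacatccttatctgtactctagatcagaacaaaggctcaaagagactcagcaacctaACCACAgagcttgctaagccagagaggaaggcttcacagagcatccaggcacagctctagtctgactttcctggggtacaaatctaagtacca
Jak1 intron 8: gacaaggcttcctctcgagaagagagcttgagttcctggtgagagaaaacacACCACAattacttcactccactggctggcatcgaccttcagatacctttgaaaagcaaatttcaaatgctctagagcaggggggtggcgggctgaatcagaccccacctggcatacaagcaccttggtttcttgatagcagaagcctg
Jak1 intron 4: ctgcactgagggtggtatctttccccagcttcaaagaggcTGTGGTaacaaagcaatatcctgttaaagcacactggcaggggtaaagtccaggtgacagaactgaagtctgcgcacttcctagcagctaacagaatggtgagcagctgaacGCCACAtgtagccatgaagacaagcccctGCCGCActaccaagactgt
Jak1 intron 1: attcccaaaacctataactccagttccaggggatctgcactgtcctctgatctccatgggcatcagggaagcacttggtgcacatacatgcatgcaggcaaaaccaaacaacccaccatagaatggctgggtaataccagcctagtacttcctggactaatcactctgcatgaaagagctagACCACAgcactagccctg
Tyk2 promoter: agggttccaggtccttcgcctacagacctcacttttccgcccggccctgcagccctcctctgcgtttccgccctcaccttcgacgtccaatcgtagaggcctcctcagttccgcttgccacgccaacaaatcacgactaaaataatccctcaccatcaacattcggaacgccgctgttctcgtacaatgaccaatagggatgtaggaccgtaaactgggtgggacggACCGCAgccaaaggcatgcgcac

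Jak1, the kinase shared by the receptors of the common gamma chain, the interferons and the interleukin-6 family, stood at chr4:100824972-100937887 on the minus strand. Its window of 152.9 kb held 5 Runx3-bound regions and 23 H3K4me1-marked regions. At least 5 Runx3-bound regions were found in the windows of 46 of 22350 protein-coding genes (0.206%), Jak1 among them. Long windows hold more regions. Among the 1894 protein-coding genes whose window was within 25% of the length of that of Jak1, 12 (0.634%) held 5 or more. Counted per length, Jak1 had 3.27 Runx3-bound regions per 100 kb, Jak3 1.84 and Tyk2 1.58.

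All 5 Jak1 regions lay inside the gene body and all midpoints lay in introns of a transcript with 25 exons. From the start of transcription inwards, the regions were centred at 10150, 51690, 77665, 89986 and 97323 bp. The spacing between neighbours narrowed inwards, from 41540 bp between the outermost pair to 25975, 12321 and 7337 bp. The region nearest to the start was at chr4:100927271-100928204 (934 bp) and the next at chr4:100885788-100886607 (820 bp), both in the first intron, which is 71178 bp long. The third was at chr4:100859657-100860787 (1131 bp) in intron 4 and was the widest of the 7. The fourth, at chr4:100847384-100848418 (1035 bp), was centred in intron 8, spanned exon 9 and reached into intron 9. The fifth, at chr4:100840082-100841047 (966 bp), was in intron 11. No Runx3-bound region lay within 20 kb on either side of Jak1, and the nearest outside was 84386 bp from the gene.

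The same part of Jak1 was almost filled with H3K4me1. The mark covered 82.3% of the gene body, against 10.6% of the 20 kb upstream and 10.2% of the 20 kb downstream. The first intron was covered to 93.0%, and the last intron with cover above 90% was intron 11. Introns 13 to 16 and 19 to 24 had no cover at all. The midpoints of the Runx3-bound regions sat inside wide blocks of the mark. From the start inwards these blocks were 21092, 9518, 9888, 8990 and again 8990 bp wide, since the last pair of midpoints shared a block. The fourth region lay across the edge of that block, with its midpoint 204 bp inside it, and reached over a gap into a block of 2918 bp. Of the 23 H3K4me1-marked regions of Jak1, 6 (26.1%) were 5 kb or wider, against 2.78% of the whole list. The widest, of 21092 bp, began 816 bp inside the gene and held the first Runx3-bound region 9334 bp from its nearest edge.

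**Figure D1:**
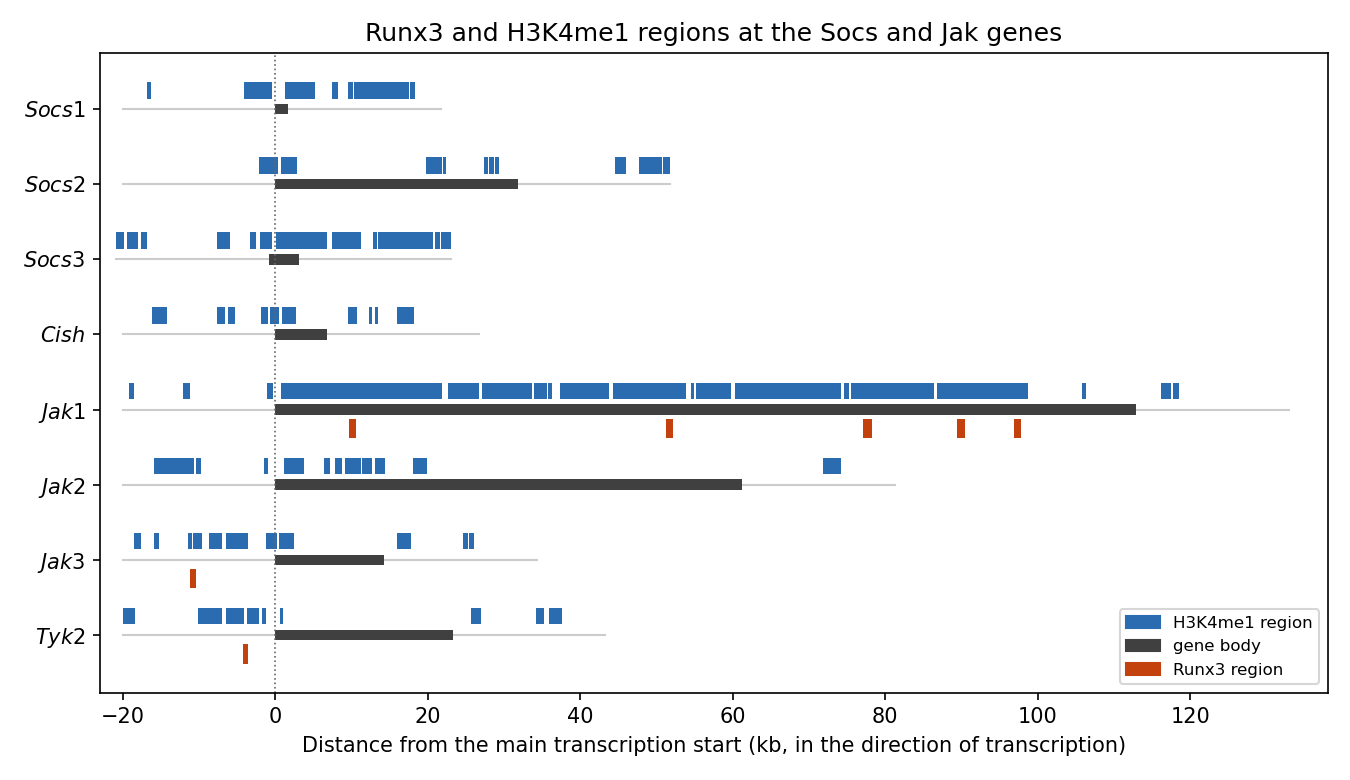
Called regions in the windows of the 8 genes, drawn to scale against the distance from the main transcription start in kb, in the direction of transcription. Dark bars are gene bodies, blue bars above them H3K4me1-marked regions and orange bars below them Runx3-bound regions. Jak1 shows 5 Runx3-bound regions within a nearly continuous H3K4me1 block that ends before the last exons, and Jak3 and Tyk2 show 1 each upstream of the gene as annotated in GENCODE.

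Jak3, the kinase that pairs with the common gamma chain and is largely limited to blood cells, stood at chr8:74200195-74214474 on the plus strand. Its only Runx3-bound region, at chr8:74189005-74189834 (830 bp), was centred 10776 bp upstream of the start, in an intron of the neighbouring gene Unc13a. The start nearest to that region was also that of Unc13a, a gene known for neurotransmitter release, at 6127 bp. Of the 12 H3K4me1-marked regions in the Jak3 window, 10 had a neighbour's start as the nearest, and 2 had that of Jak3. Which of the genes the region serves was not tested.

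Tyk2, the kinase of the interferon-alpha and interleukin-12 receptors, stood at chr9:20908521-20931790 on the minus strand. Its Runx3-bound region, at chr9:20935343-20936010 (668 bp), was the narrowest of the 7 and was intergenic in the GENCODE annotation, centred 3886 bp upstream of the annotated start. The RefSeq start of Tyk2, placed on NCBIM37 by its promoter sequence, was at 20935719. It lay inside the region and 43 bp from its midpoint. The 250 bases shown above held 1 RUNX motif, of the variant TGCGGT on the opposite strand, beginning 23 bp before that start. Of 32817 RefSeq promoters of 250 bp, 37.9% held a RUNX motif. By the GENCODE starts, 0 of the 8 genes and 3.06% of protein-coding genes had their main start inside a Runx3-bound region. By the RefSeq starts, which were matched for 7 of the 8 genes and chosen after seeing the data, Tyk2 was the only match. The share of all RefSeq starts inside a Runx3-bound region is not given, so this count has no like background.

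All 7 Runx3-bound regions overlapped H3K4me1 by at least 1 bp (100%, exact binomial 95% interval 59.0 to 100%), and 78.8% of the whole Runx3 list did. Intervals here cover counting error only, and the Jak1 regions share a gene. Of the Jak1 regions, 4 were covered by the mark over their full length and the fifth over 98.2%. The Jak3 region was covered over 84.0% and the Tyk2 region over 38.2%. The Tyk2 region was also the only 1 of the 7 whose midpoint was not inside the mark. It bridged a gap of 413 bp between a block of 1606 bp and a block of 2379 bp, and the RefSeq start of Tyk2 lay in that gap. In the whole Runx3 list 66.1% of midpoints were inside the mark. Conversely, 9 of the 95 H3K4me1-marked regions overlapped Runx3 (9.47%, interval 4.42 to 17.2%), against 5.49% of all H3K4me1-marked regions, a value inside that interval.

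Every one of the 7 Runx3-bound regions held a RUNX motif (exact interval 59.0 to 100%), and 88.8% of the whole list did. In windows of the same width 5 kb to each side, 9 of 14 held it (64.3%), against 73.3% around the whole list. The number of matches differed among them. The Jak1 regions in introns 11, 8 and 4 held 1, 4 and 6 matches, the pair in intron 1 held 3 at the inner and 1 at the outer site, and the Jak3 and Tyk2 regions held 6 and 1. Within the 200 bp around the midpoint, 6 of the 7 held the motif, as in the Jak1 sequences above, and 66.0% of the whole list did. The exception was the Jak1 region nearest to the start, whose single match was 458 bp from the midpoint, near the edge of the region. In windows of 200 bp placed 5 kb to each side of the 7 regions, 1 of 14 held the motif (7.14%, interval 0.181 to 33.9%), against 27.8% around the whole list. At Jak1 the variant TGTGGT made up 1 of 1 match in intron 11, 1 of 4 in intron 8, 3 of 6 in intron 4, and 2 of 3 at the inner and 0 of 1 at the outer site of intron 1. It made up 4 of 6 at Jak3, and the match at Tyk2 was TGCGGT.

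**Figure D2:**
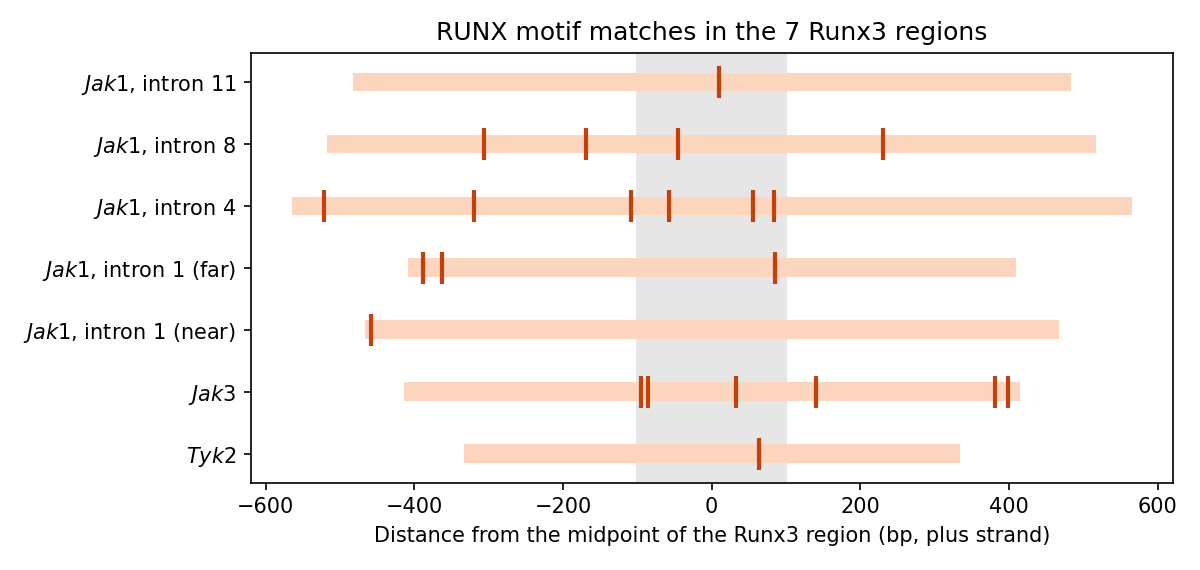
Positions of RUNX motif matches, on either strand, in the 7 Runx3-bound regions, as the distance in bp from the midpoint of each region along the plus strand. Pale bars are the called regions to scale, dark ticks the matches and the grey band the 200 bp around the midpoint. The band holds a match in 6 of the 7 regions and none in the Jak1 region nearest to the start.

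The ETS motif, counted as NGGAAN on either strand, with A or C in the first place and A or G in the last, was in all 7 regions (interval 59.0 to 100%) and in 95.0% of the whole list, but windows of the same width placed 5 kb to each side also held it, in 14 of 14 cases here and in 88.4% around the whole list. Around the midpoints it was in 6 of 7, against 63.8% of the whole list, and in the 200 bp windows to the sides in 4 of 14 (28.6%), against 43.0%. The exception was the Jak3 region. The GAS motif, searched as TTCNNNGAA, was in 2 of the 7 regions (28.6%, interval 3.67 to 71.0%), both of them at Jak1, and in 25.8% of the whole list. It was in none of the 7 windows around the midpoints (interval 0 to 41.0%), against 6.73% of the whole list. Matches of different motifs were counted separately and may share bases.

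The 4 Socs genes had no Runx3-bound region within 20 kb and had a high cover by H3K4me1. All 8 genes had an H3K4me1-marked region, as did 73.6% of protein-coding genes, and all 8 had at least 7, as did 29.2%. Socs1 held 7, Socs2 11, Socs3 11 and Cish 10 of them, and Jak2, Jak3 and Tyk2 held 13, 12 and 8. Because windows differ in length, the share of the window covered by the mark was compared. Over all protein-coding genes its median was 5.75%, with quartiles of 0 and 14.3%. All 8 genes lay above the upper quartile, from 19.4% at Jak2 to 63.5% at Jak1.

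Socs3, the inhibitor of interleukin-6-type receptors, had no Runx3-bound region and nearly the same cover as Jak1, with 62.3% of its window of 44.0 kb. Of all protein-coding genes 99.8% had a lower share, as for Jak1, and of the 17921 genes without a Runx3-bound region 99.9% did. The gene body at chr11:117827393-117831361 was covered to 87.0% and the 20 kb downstream to 86.0%, against 33.7% upstream. The widest blocks there were 7267 bp, 6686 bp, which began in the gene, and 3764 bp. The nearest Runx3-bound region was 93895 bp from the gene.

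Socs1, which inhibits the kinases directly and restrains interferon-gamma and interleukin-2 signals, followed with 42.1% of its window of 41.7 kb. The gene at chr16:10783901-10785629 is short, and the mark lay mostly behind it, with 64.1% of the 20 kb downstream against 21.2% upstream and 28.1% of the body. A block of 7270 bp centred 13928 bp downstream of the start made up most of it. Of protein-coding genes 97.9% had a lower share, and of those without a Runx3-bound region 99.2% did. The nearest Runx3-bound region, at chr16:10813056-10813766, was 27782 bp upstream, past the limit of 20 kb, and 403 bp from the start of Gm11172.

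Cish, which acts on the interleukin-2 receptor and the T-cell receptor pathway, had 25.6% of its window of 46.8 kb covered. The body at chr9:107198357-107205115 was covered to 33.7%, with 27.4% upstream and 21.0% downstream. Socs2, best known for restraining growth hormone signals, had 19.7% of 71.8 kb covered, with 10.5% upstream, 20.7% of the body at chr10:94847996-94879814 and 27.2% downstream. Lower shares were found in 90.4% of protein-coding genes for Cish and 84.0% for Socs2. The nearest Runx3-bound region to Cish was 31740 bp from the gene in an intron of Hemk1, and the nearest to Socs2 was 58987 bp away.

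Jak2, the kinase of the erythropoietin, growth hormone and interferon-gamma receptors, had the lowest cover of the 8, with 19.4% of 101.3 kb at chr19:29326318-29387570. Its cover was 32.3% upstream, 17.8% in the body and 11.5% downstream, and its nearest Runx3-bound region was 118210 bp away in an intron of Pdcd1lg2. Jak3 and Tyk2 had 26.4% and 22.0% covered. In both, the cover was highest upstream, with 44.8% of the 20 kb before Jak3 and 46.9% of those before Tyk2. Downstream it was 15.7% at Jak3 and 20.5% at Tyk2. The Jak3 body was covered to 15.6% and the Tyk2 body to 1.95%, the lowest body value of the 8. At the limit of the rule, the Runx3-bound region farthest inside was that of Jak3, 10776 bp from the gene, and the closest outside was that of Socs1. For H3K4me1 the farthest inside was 19735 bp from Socs2 and the closest outside 20416 bp from Tyk2.

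**Figure D3:**
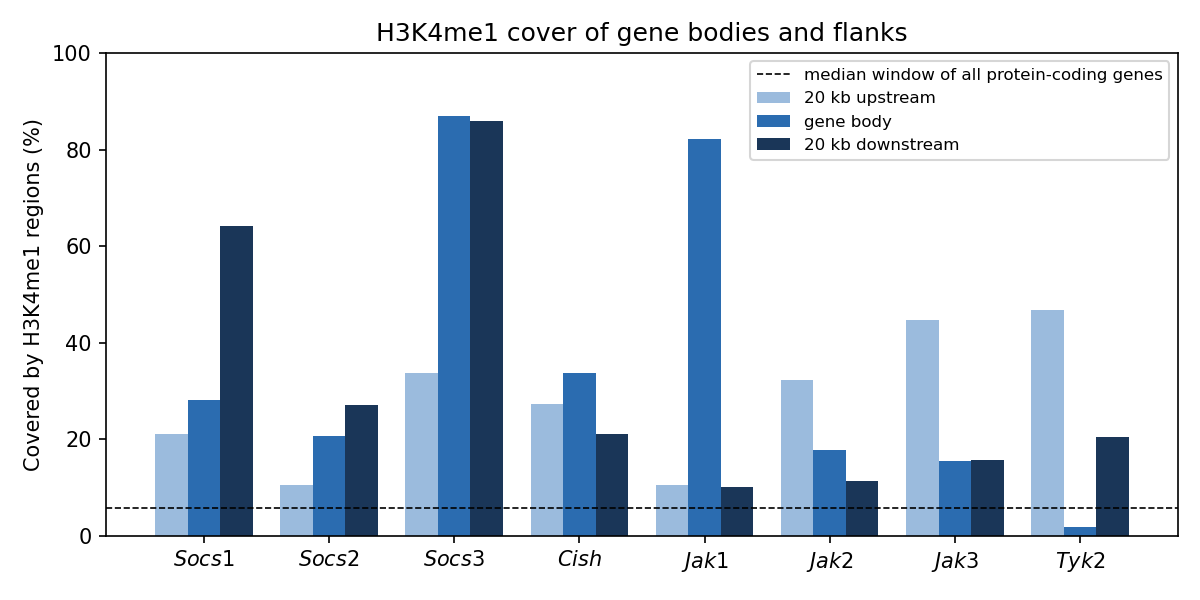
Share of sequence covered by H3K4me1-marked regions, in percent, in the 20 kb upstream, the gene body and the 20 kb downstream of each gene as annotated in GENCODE. The dashed line is the median over whole windows of all protein-coding genes (5.75%). Jak1 peaks in its body (82.3%), Socs1 downstream (64.1%) and Jak3 and Tyk2 upstream (44.8% and 46.9%).

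**Figure D4:**
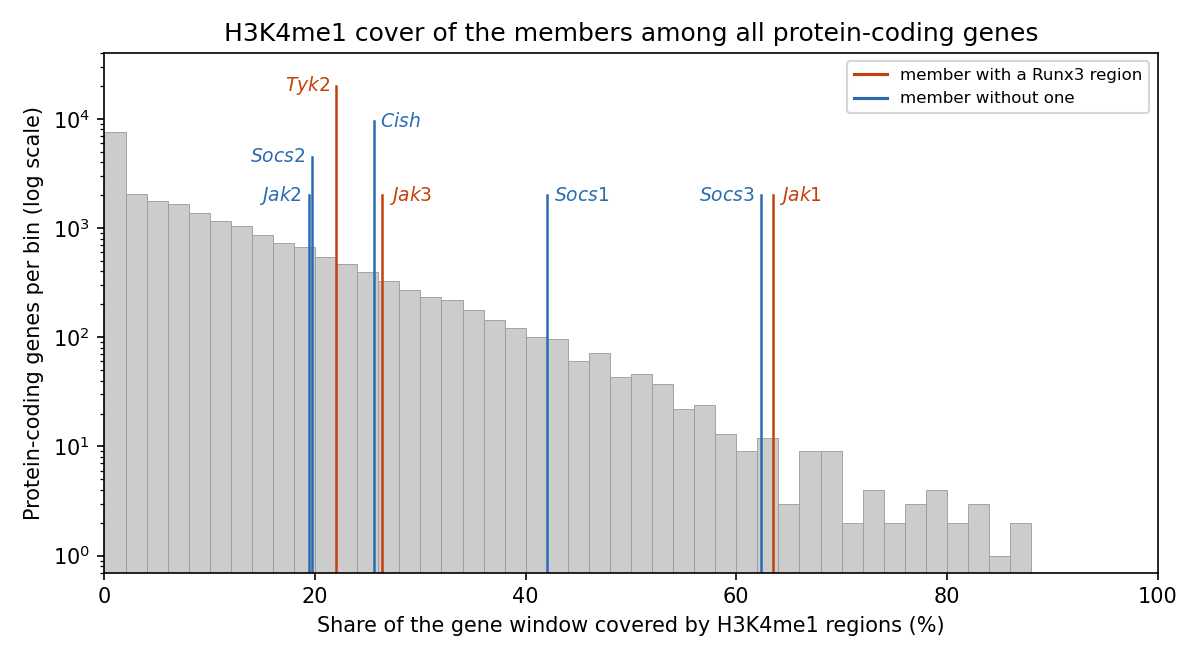
Histogram of the H3K4me1-covered share of the window over 22350 protein-coding genes, with the number of genes per bin of 2 percentage points on a log scale. Lines mark the 8 genes, orange with and blue without a Runx3-bound region. Socs3 (62.3%) stands beside Jak1 (63.5%) at the far right, and all 8 lie above the upper quartile of 14.3%.

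Over all protein-coding genes the covered share rose with the number of Runx3-bound regions in the window. The median was 3.88% in the 17921 genes with none, 14.1% in the 3385 with 1 and 25.3% in the 1044 with 2 or more. The 4 Socs genes and Jak2 had none and lay between 19.4% and 62.3%, above the upper quartile of 10.7% of the genes with none. The 95 H3K4me1-marked regions at the 8 genes had a median width of 1303 bp, against 979 bp in the whole list, and 10 of them (10.5%) were 5 kb or wider, against 2.78%. Without Jak1, 4 of 72 (5.56%) were.

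The mark was placed around the starts in 1 of 2 ways. The main start was inside an H3K4me1-marked region at 3 of the 8 genes, Socs2, Cish and Jak3, and at 17.4% of protein-coding genes. At the other 5 genes, Socs1, Socs3, Jak1, Jak2 and Tyk2, the start lay in a gap with a region within 2 kb on both sides, as at 29.7% of protein-coding genes. The gaps were 1680 bp at Socs1, 517 bp at Socs3, 1167 bp at Jak1, 2068 bp at Jak2 and 1793 bp at Tyk2. With the RefSeq starts, Cish also fell into a gap, of 399 bp, and Tyk2 into that of 413 bp. Counting any annotated start, 5 of the 8 genes had a start inside the mark, Socs3 and Jak1 included. The share of all protein-coding genes by that count is not given, and genes with more transcripts, such as Socs2 with 15, can have more starts. No main start of the 8 genes was without a region within 2 kb, whereas 42.4% of protein-coding genes had none on either side of theirs.

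Since the Socs genes are Stat targets, the GAS motif was counted within 1 kb of each main start, with positions upstream of it written as negative. Cish held 5 matches, Socs2 3, Socs3 2 and Socs1 1, while Jak2 held 2, Jak1 1 and Jak3 and Tyk2 none. At least 1 match was found at 45.2% of protein-coding genes, at least 2 at 12.5%, at least 3 at 2.58% and at least 5 at 0.0984% (22 genes). Of these, 4 of the 5 Cish matches and 2 of the 3 Socs2 matches stood in pairs, and the others were single, at -496 bp from the main start of Cish and -760 bp from that of Socs2, both inside an H3K4me1-marked region. The pairs are shown with the motif in capitals, together with the match nearest to the start of Socs3 and that of Socs1, in which the fixed letters alone are in capitals. Each is written on the strand of its gene. The Cish pairs lie at chr9:107198990-107199009 and chr9:107199095-107199120 on the plus strand, the Socs2 pair at chr10:94879538-94879557 on the minus strand, and the Socs3 and Socs1 matches have their palindromes at chr11:117830553-117830561 and chr16:10786074-10786082 on the minus strand.
Cish first pair: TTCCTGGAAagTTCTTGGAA
Cish second pair: TTCTAGGAAgatgaggcTTCCGGGAA
Socs2 pair: TTCCTGGAAagTTCCTGGAA
Socs3 single site: ccgggcagTTCcagGAAtcgggggg
Socs1 single site: tagccgggTTCcaaGAAgggtcgag

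The spacing from the beginning of a match to that of its partner was 11 bp in the Socs2 pair and in the first Cish pair, and 17 bp in the second Cish pair. Both Cish pairs lay in the H3K4me1 gap of 399 bp around the RefSeq start, and the first pair began at that start. The Socs2 pair lay inside an H3K4me1-marked region of 2433 bp, 261 and 272 bp after the start. The Socs3 site was centred at -57 bp from the main start, in the gap of 517 bp, and another match at -330 bp was in the same gap. The Socs1 site, at -449 bp, lay just inside the edge of a marked region of 3718 bp. No Runx3-bound region was called at any of these sites, which follows from there being none within 20 kb of these genes. A match is a description of the letters in the reference genome, and Stat binding was not measured.

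**Figure D5:**
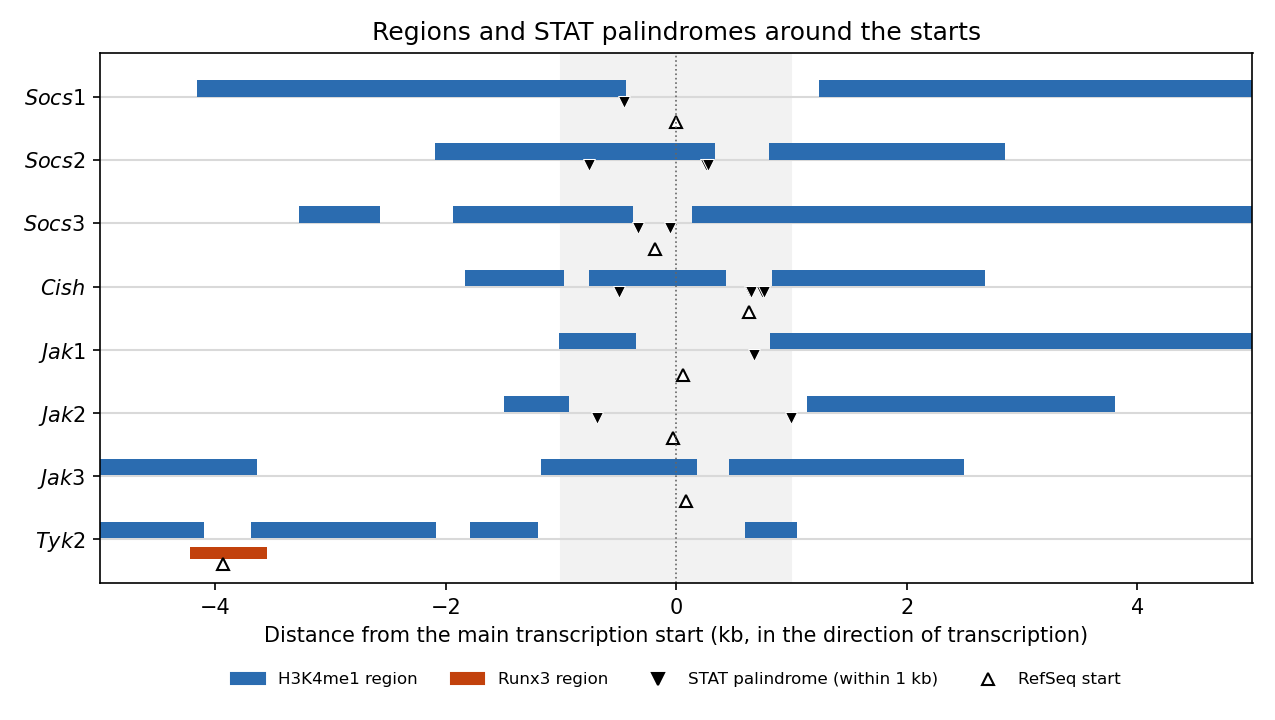
Called regions within 5 kb of the main start of each gene, with the distance in kb along the direction of transcription. Blue bars are H3K4me1-marked regions, the orange bar the Runx3-bound region, black triangles GAS motif matches within 1 kb of the start (grey band) and open triangles RefSeq starts, where matched. The gaps in the mark at Socs1, Socs3, Jak1, Jak2 and Tyk2 and the 5 matches of Cish can be read from it.

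Over the H3K4me1-marked regions as a whole, the GAS motif occurred 0.562 times per kb at the 4 Socs genes (40 matches in 71.2 kb) and 0.412 times per kb at the 4 kinase genes (59 in 143.4 kb), against 0.330 per kb in the whole list. Cish was highest with 0.669 per kb, and Jak3 lowest with 1 match or 0.0699 per kb. Gene by gene the groups overlapped. Socs1 had 0.627, Socs3 0.516 and Socs2 0.481, while Jak2 had 0.509, Jak1 0.464 and Tyk2 0.242 (3 matches). The RUNX motif occurred 2.06 times per kb at the Socs genes and 1.72 at the kinase genes, against 1.94 in the whole list. The marked sequence of the Socs genes together held RUNX matches at about the density of the whole list (147 matches) with no Runx3-bound region called there. The genes differed, from 1.58 per kb at Socs3 and 1.67 at Cish to 2.39 at Socs1 and 2.89 at Socs2. Only 5.49% of all H3K4me1-marked regions overlapped Runx3, so an absence among the 39 at the Socs genes is not set apart from the whole list.

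The rest of the pathway was read from lists of genes. The other Socs genes, Socs4 to Socs7, held none (0 of 4). By this rule none of the 8 genes of the Socs family, Cish included, had a Runx3-bound region, against 19.8% of protein-coding genes. With so few genes a count of 0 of 8 cannot be set apart from that share. It also depends on the window, since with 50 kb Socs1 and Cish held 1 region each. Stat4, which transmits interleukin-12 signals, held 6. Of the Pias genes, which inhibit Stat factors, 1 of 4 had a region. Of the phosphatases and adaptors that act on the kinases 4 of 8 did, led by Ptprc (CD45) with 5. Of the cytokine receptor genes used by T cells 13 of 19 did, with 4 each at Il2ra and Il21r and 3 at Il6ra. Il4ra and Il21r share 1 region. Of the receptor genes of other tissues 2 of 8 did. The median covered share was 16.6% in the other Socs genes, 20.4% in the Pias genes, 32.3% in the phosphatases and adaptors, 30.7% in the T-cell receptors and 5.55% in the receptors of other tissues. The 4 Socs genes described here had a median of 33.8% and the 4 kinase genes 24.2%.

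Marker genes of cell types were read in the same way. The 7 T-cell markers were Cd8a, Cd8b1, Cd3d, Cd3e, Cd3g, Lck and Thy1. All 7 held a Runx3-bound region, against 19.8% of protein-coding genes, and their median covered share was 39.4%, against 5.75%. Apart from Cd8a and Cd8b1 these genes mark T cells in general, and no markers of other T cells were listed. The list therefore does not tell CD8-TC from other T cells. The windows of Cd3d, Cd3e and Cd3g overlap, as do those of Cd8a and Cd8b1, so the 7 are not separate loci. Of B-cell markers 3 of 5 held one, with a median covered share of 32.1% and a range of 19.2 to 53.4%. Of myeloid markers 2 of 5 did, Itgam and Itgax, whose windows overlap, with a median of 13.7% and a range of 0 to 31.2% over the 5. None of the 2 NK-cell and 3 erythroid markers did, with covered shares up to 23.5% and 8.24%. The part of cells other than CD8-TC in the values of the Socs and kinase genes was not tested.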

How the data were processed

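ChIP-seq was done on splenic CD8+ T cells, with chromatin sheared to fragments of about 300 bp. The authors aligned reads of 40 to 42 bp to mm9 with ELAND, kept unique alignments, joined both repeats of each antibody and called regions with MACS against the joined NIS libraries. The submitters' processing notes name CASAVA 1.6 and 1.7. The deposited values are positions: chromosome, start and end, and no count or score, so no test could be run. Starts were moved by 1 bp to count from 1.

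Regions were assigned by midpoint to 22350 protein-coding genes of GENCODE M1. Motifs were searched on both strands of NCBIM37, the reference and not the ICR genome. Promoters came from RefSeq (GRCm38.p6) and were placed on NCBIM37 by exact match of 250 bp. Socs2 had no entry. Scripts, tested on simulated regions, used Python 3.11.15, numpy 2.4.6 and scipy 1.17.1.

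The genes and lists were chosen with earlier results of these data known. Named were the 8 genes, other pathway genes with 3 or more Runx3-bound regions, and neighbours whose start is nearest to a Runx3-bound region. Others were named after their values were seen. The Stat list and some sequences are not reported here. Alternatives were windows of 0, 5 and 50 kb, any overlap, merging within 1000 bp, stricter overlap with H3K4me1, the 200 bp around midpoints, other starts and genes of like window length.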

Additional observations from a re-analysis of the deposited data

How the results depend on the processing

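Of 50 alternative values, 34 stayed near the reported value, that is within 1.5 times a count, distance or covered share or within the exact 95% interval of another share, and 16 did not. The number of Runx3-bound regions rested on Jak1, without which 2 remained (chosen after seeing the data). With the gene body alone, 1 of the 8 genes had a Runx3-bound region, and with 50 kb 5 had, since Socs1 and Cish gained 1 each. H3K4me1-marked regions numbered 35 in gene bodies, 53 within 5 kb and 42 when regions within 1000 bp were merged, so that much of the count comes from blocks split by short gaps. The covered share was 65.2% for Socs1 and 14.6% for Tyk2 within 5 kb, 11.0% for Socs2 and 40.1% for Socs3 within 50 kb, and 15.6% for Jak3 and 1.95% for Tyk2 in the body. The GAS motif was in 0% of the 200 bp windows. Counting any annotated start, 5 genes had a start inside H3K4me1. Among genes of like window length 18.9% held a Runx3-bound region. With the RefSeq start, chosen after seeing the data, the Tyk2 region was 43 bp from the start instead of 3886 bp. No paired analysis was possible because both repeats of an antibody went into its list together. Depth and height are not in the lists, so a weak region and a missed one cannot be told apart.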
